A study of Mus musculus with 3 samples.

Results

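The 9 genes examined encode regulators of the post-implantation epiblast and of anterior neural fate: *Otx2*, *Utf1*, *Pou3f1*, *Zic2*, *Zic5*, *Sall2*, *Sox3*, *Lin28a* and *Lin28b*. They were taken by symbol from the deposited table, and 9 of 9 were found among its 23421 genes. The RNA came from E6.5 embryos, as 1 library each of wild type (WT), tw18/+ and tw18/tw18, all labelled as strain 129/SvEv and all obtained by mating tw18/+ mice with each other. tw18 is a *t* haplotype whose Chr 17 carries a deletion that removes *Ppp2r1a*, the gene of the PP2A scaffold subunit, together with its neighbours. None of the 9 genes lies on Chr 17. The labels name the tissue as epiblast, whereas the methods describe the dissected part as epiblast with the visceral endoderm around it. The study raises a background that is not fully inbred as a possibility, the number of embryos per library is not given, genotype and library cannot be told apart, and no difference below has a replicate check or a p-value.

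Between implantation and gastrulation the epiblast leaves the naive pluripotent state and passes through a formative to a primed state, in which cells can respond to signals that induce the germ layers. OTX2 and POU3F1 are transcription factors that act in this transition and then in anterior neural induction. ZIC2, ZIC5, SOX3 and SALL2 are DNA-binding proteins of the epiblast and the early neural plate, UTF1 is a chromatin-bound protein of pluripotent cells, and LIN28A and LIN28B are RNA-binding proteins that block maturation of the let-7 microRNAs.

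The largest differences were in *Zic5*, *Zic2* and *Lin28b*, and promoters are shown for *Zic5*, for *Lin28b* and for its paralog *Lin28a*. RefSeq promoters (GRCm38.p6, 300 bases around a start site) were found for 6 of the 9 genes, all but *Pou3f1*, *Zic2* and *Sox3*. In the 3 windows below, on the minus strand at chr14:122465609-122465908 (*Zic5*), chr10:45470152-45470451 (*Lin28b*) and chr4:134018767-134019066 (*Lin28a*), capitals mark matches on either strand to the 7 motifs named after them.
Zic5: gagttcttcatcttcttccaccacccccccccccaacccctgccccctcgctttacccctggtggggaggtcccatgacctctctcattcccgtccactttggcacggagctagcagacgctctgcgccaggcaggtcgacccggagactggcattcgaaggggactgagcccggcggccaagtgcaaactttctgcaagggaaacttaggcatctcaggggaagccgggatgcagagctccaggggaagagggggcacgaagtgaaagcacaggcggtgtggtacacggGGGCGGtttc
Lin28b: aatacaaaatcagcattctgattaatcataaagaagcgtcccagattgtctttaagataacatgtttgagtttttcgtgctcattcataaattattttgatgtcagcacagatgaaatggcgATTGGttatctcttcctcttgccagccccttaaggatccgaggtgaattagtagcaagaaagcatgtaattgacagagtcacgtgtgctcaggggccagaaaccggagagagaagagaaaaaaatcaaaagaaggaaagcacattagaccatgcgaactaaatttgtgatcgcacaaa
Lin28a: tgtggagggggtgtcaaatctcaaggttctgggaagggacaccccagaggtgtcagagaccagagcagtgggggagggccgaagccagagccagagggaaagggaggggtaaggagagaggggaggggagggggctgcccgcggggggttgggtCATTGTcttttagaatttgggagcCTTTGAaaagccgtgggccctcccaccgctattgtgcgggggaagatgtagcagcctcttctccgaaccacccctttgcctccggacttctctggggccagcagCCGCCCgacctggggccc
The motifs were the octamer ATGCAAAT, TAATCC of OTX factors, TCAAAG of TCF/LEF factors, ACAATG of SOX factors, the GC box GGGCGG, the CCAAT box CCAAT and the TATA box TATAAA. Over 32851 promoter windows of this length they occurred in 1.74%, 7.06%, 16.0%, 12.6%, 35.7%, 37.4% and 13.6%, in that order. The *Zic5* window held a single GC box, with 62.7% G and C and 15 CpG, where the median over all windows was 52.7% and 7. The *Lin28b* window held a single CCAAT box, with 39.0% G and C and 8 CpG, and it lies inside the span that GENCODE gives this gene. The *Lin28a* window held 1 match each to the SOX, TCF/LEF and GC box motifs, with 63.3% G and C and 10 CpG. A match of these letters is a description of the window and not a binding site.

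The let-7 microRNAs that LIN28 proteins act on share 1 seed, the 7 bases that pair with targets, shown in capitals for 4 of the 9 mature sequences in RefSeq, which lie at chr13:48538239-48538260 (let-7a, minus strand), chr13:48536078-48536099 (let-7d, minus), chr9:106178846-106178867 (let-7g, plus) and chrX:151913229-151913250 (miR-98, plus).
let-7a-5p: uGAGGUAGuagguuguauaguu
let-7d-5p: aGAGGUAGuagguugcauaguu
let-7g-5p: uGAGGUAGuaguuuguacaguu
miR-98-5p: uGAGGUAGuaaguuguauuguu

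Values are FPKM, fragment numbers scaled to transcript length and library depth, so levels of different genes can be compared within a library. Differences are log2 ratios of FPKM without a pseudocount, and a gene was counted as lower or higher when its log2 ratio was at least 1 in size (2-fold) and its level reached 1 FPKM in either library. From the spacing of low FPKM values, 1 fragment on 1 kb of transcript was worth 0.067 FPKM in WT, 0.0471 in tw18/+ and 0.0476 in tw18/tw18. By this measure the last 2 libraries were 1.42 and 1.41 times as deep as WT, unless the deposited values carry a further scaling between libraries. Fragment numbers and the 95% counting intervals derived from them are estimates, and they cover counting error only and not the spread between embryos. *Ppp2r1a*, the check of the labels, stood at 146 FPKM in WT, 81.7 in tw18/+ and 12.8 in tw18/tw18, which is low but not 0. The sum of all FPKM was smaller in tw18/tw18, and rescaling to equal sums would add 0.21 to every log2 ratio of tw18/tw18 against WT and 0.25 to those against tw18/+.

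All 9 genes were expressed in all 3 libraries. In WT the order from the highest FPKM was *Lin28a* (187), *Utf1* (165), *Otx2* (82.7), *Sall2* (53.5), *Zic2* (41.2), *Pou3f1* (36.2), *Lin28b* (24.7), *Zic5* (15.4) and *Sox3* (8.94), the last from about 256 fragments. *Lin28a* stood at rank 320 of the 23421 genes and *Sox3* at rank 6492. The tw18/+ library had the same order, although the counting intervals of *Zic2* and *Pou3f1* overlapped there. In tw18/tw18 *Pou3f1* stood above *Zic2*, and *Zic5* was the lowest of the 9, below *Sox3*, while the intervals of *Lin28b* and *Sox3* overlapped. The summed FPKM of the 9 genes was 614 in WT, 613 in tw18/+ and 407 in tw18/tw18.

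**Figure D1:**
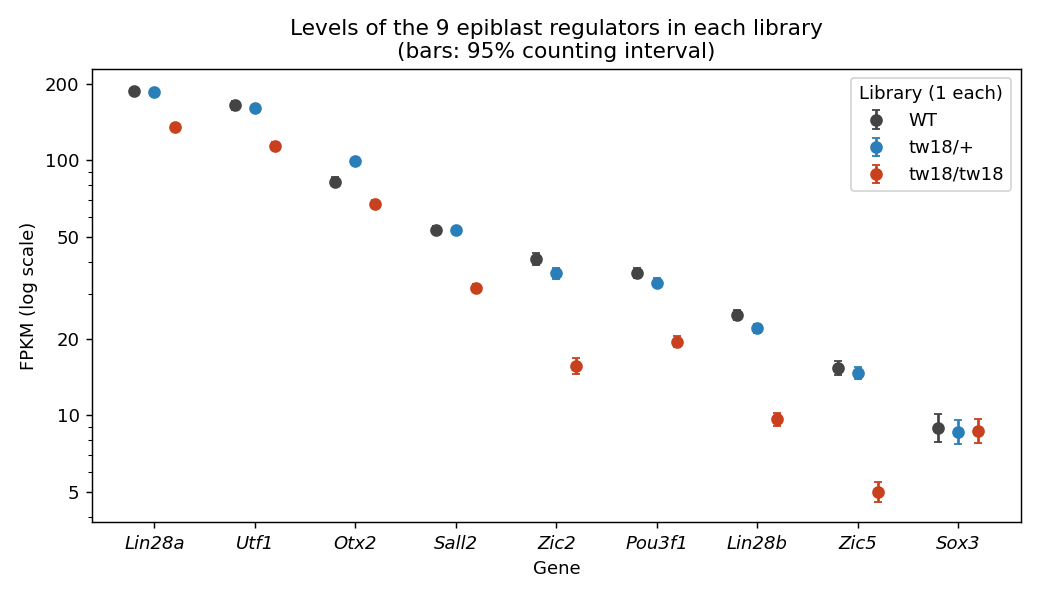
FPKM of the 9 genes (log axis) in the WT, tw18/+ and tw18/tw18 libraries, 1 point per library, with bars for the 95% counting interval. *Otx2* is the only gene with a tw18/+ point above WT beyond the bars, and the tw18/tw18 point is the lowest for all but *Sox3*.

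In tw18/tw18 against WT, 3 of the 9 genes (*Zic5*, *Zic2* and *Lin28b*) were lower by at least 2-fold and 0 were higher. Over all 12917 genes that reached 1 FPKM in either library, 6.94% were lower and 15.1% higher, and 4.89% and 19.3% after rescaling to equal sums, where the same 3 members remained lower. The median log2 ratio of the 9 genes was -0.76, beside -0.016 over all genes. All 10 epiblast markers were also lower, with a median log2 ratio of -1.10. Scaling to that median adds 1.10 to the log2 ratio of every gene, after which 0 of the 9 genes were lower by 2-fold and 1 higher, beside 2.11% and 55.7% of all genes. The ratios of *Otx2*, *Utf1*, *Pou3f1*, *Sall2*, *Sox3* and *Lin28a* are then positive, as is that of any gene above -1.10. In RNA from whole tissue, fewer cells of a type and less RNA per cell cannot be told apart. With a limit of 1.5-fold, 5 of the 9 genes were lower, adding *Pou3f1* and *Sall2*, beside 16.0% of all genes.

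Against tw18/+, the same 3 genes were lower in tw18/tw18 by at least 2-fold and 0 were higher, where 5.65% of all genes were lower and 14.9% higher. After rescaling to equal sums *Zic5* alone stayed past the limit, with *Zic2* at -0.96 and *Lin28b* at -0.94, beside 3.67% of genes lower and 19.8% higher. The median of the 9 genes was -0.75, and 5 were lower by 1.5-fold, beside 15.2% of all genes. This comparison shares the tw18/tw18 library with the one against WT.

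In tw18/+ against WT, 0 of the 9 genes were lower and 0 higher by 2-fold, where 5.02% of all genes were lower and 4.7% higher. The log2 ratios ran from -0.19 for *Zic2* to 0.27 for *Otx2*, with a median of -0.054.

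**Figure D2:**
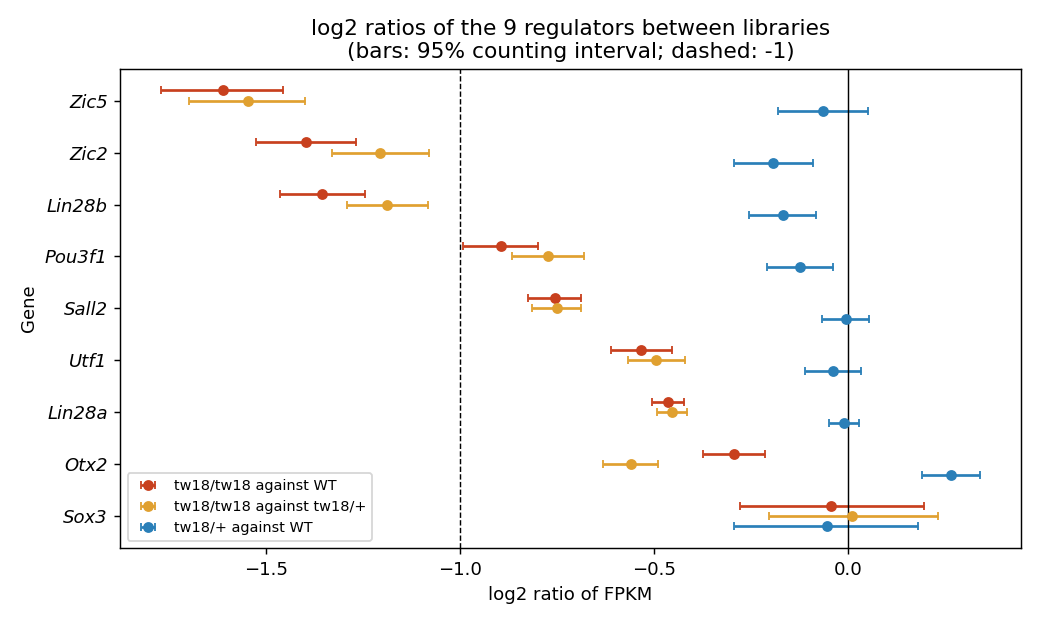
log2 ratios of FPKM for the 9 genes in the 3 comparisons, ordered by tw18/tw18 against WT, with 95% counting intervals and a dashed line at the limit of -1. *Zic5*, *Zic2* and *Lin28b* lie left of the line in both comparisons of tw18/tw18, and all tw18/+ against WT values lie between -0.19 and 0.27.

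**Figure D3:**
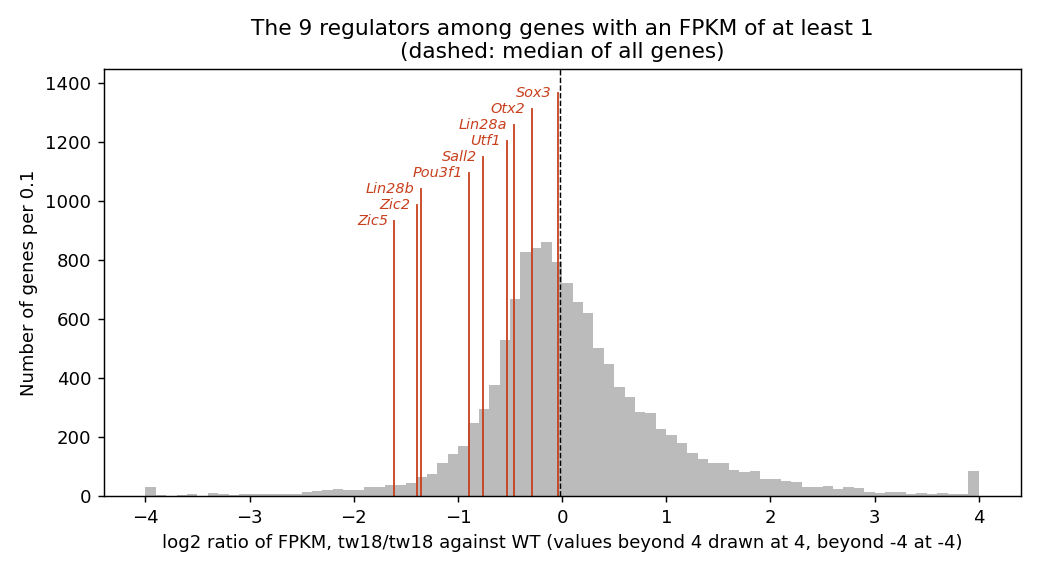
Number of genes per 0.1 of log2 ratio, tw18/tw18 against WT, over the 12625 genes that reached 1 FPKM in either library and were at 0 in neither, with the 9 genes marked in red and the median of all genes dashed. All 9 marks lie left of the median, from -1.61 (*Zic5*) to -0.042 (*Sox3*).

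*Zic5* and *Zic2* encode zinc finger transcription factors, and loss of ZIC2 function is known to cause holoprosencephaly, a failure of the forebrain to divide. They lie close to each other on Chr 14 in opposite directions, *Zic5* from 122456795 to 122465677 on the minus strand and *Zic2* from 122475435 to 122479852 on the plus strand (GRCm38), with 9757 bp and 1 other annotated gene between them. *Zic5* stood at 15.4 FPKM in WT, 14.7 in tw18/+ and 5.03 in tw18/tw18, from about 1060, 1442 and 488 fragments. *Zic2* stood at 41.2, 36.1 and 15.6 FPKM in the same order. Both were lowest in the tw18/tw18 library, and in tw18/+ they stood at or a little under WT. The log2 ratio of tw18/tw18 against WT was -1.61 (interval -1.77 to -1.46) for *Zic5*, the largest of the 9, and -1.40 (-1.52 to -1.27) for *Zic2*. These intervals overlap. *Zic2* exceeded *Zic5* by 2.68-fold in WT, 2.45-fold in tw18/+ and 3.11-fold in tw18/tw18, so that the pair kept its order. *Zic1* and *Zic4* were under an FPKM of 1 in every library. Of the 50 bp words of *Zic5* transcripts, 7.48% also occur in *Gm12241* or *Tmem236*, and 0 words of *Zic2* are shared with another gene.

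*Lin28b* (Chr 10, positions 45376620 to 45486395) stood at 24.7 FPKM in WT, 22.0 in tw18/+ and 9.67 in tw18/tw18, from about 1938, 2455 and 1067 fragments. *Lin28a* (Chr 4, positions 134003330 to 134018841) stood at 187, 185 and 135 FPKM. The tw18/tw18 library was the lowest for both paralogs. The log2 ratio of tw18/tw18 against WT was -1.35 (-1.46 to -1.25) for *Lin28b* and -0.46 (-0.50 to -0.42) for *Lin28a*, and these intervals do not overlap. *Lin28a* was 7.55 times as abundant as *Lin28b* in WT, 8.42 times in tw18/+ and 14.0 times in tw18/tw18.

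**Figure D4:**
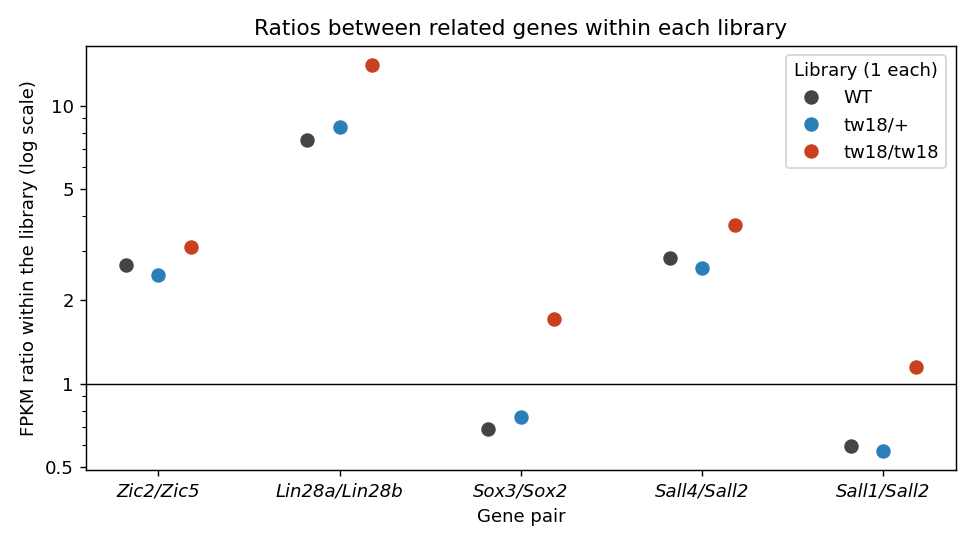
FPKM ratio (log axis) between related genes within each library, 1 point per library. The tw18/tw18 ratio is the highest for each of the 5 pairs, and it lies on the other side of 1 from WT for *Sox3*/*Sox2* and *Sall1*/*Sall2*. No counting interval was derived for these ratios.

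Of 12 genes that process let-7 and other microRNAs, 0 were lower and 0 higher by 2-fold in tw18/tw18 against WT, with a median log2 ratio of -0.29. *Drosha*, the nuclear nuclease that cuts primary microRNAs, stood at 69.9, 71.7 and 58.6 FPKM in WT, tw18/+ and tw18/tw18, and *Ago2*, which carries mature microRNAs, 55.5, 52.9 and 38.2. *Ago1* had the lowest log2 ratio (-0.61) and *Zcchc6*, a terminal uridylyltransferase, the highest (0.56). Of 18 known let-7 targets, 4 were lower and 0 higher by 2-fold, with a median of -0.44, and 2 were lower after rescaling to equal sums. The 4 were *Ccnd2* (-1.72), *Ccnd1* (-1.48), *Hmga2* (-1.02) and *Mycn* (-1.01). *Ccnd2* and *Ccnd1* encode D-type cyclins. Over all genes 6.94% were lower and 15.1% higher, and 4.89% and 19.3% after rescaling to equal sums. Scaled to the epiblast markers, 0 of the 18 targets were lower and 5 higher, beside 2.11% and 55.7% of all genes. Some of the 18 targets are also among the 12 processing genes or the other genes of the formative and primed epiblast. *Arid3a* had the highest ratio (0.57), at 4.45, 3.27 and 6.59 FPKM. The most abundant targets were *Cdc34*, at 105, 136 and 122 FPKM, and *Igf2bp1*, with 87.2, 86.2 and 76.8. Of the 12 let-7 precursor genes, 11 were listed at 0 in WT, 12 in tw18/+ and 11 in tw18/tw18. The 2 listed above 0 were *Mirlet7d*, at 1.41 in WT, and *Mirlet7f-1*, at 0.586 in tw18/tw18. Libraries of this kind do not measure mature microRNAs.

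*Otx2* (Chr 14, positions 48657677 to 48673819) encodes a homeodomain protein that is also made in the anterior visceral endoderm, a tissue within the dissected part. Its FPKM was 82.7 in WT, 99.4 in tw18/+ and 67.5 in tw18/tw18. *Otx2* was highest in tw18/+, alone among the 9 genes. Its log2 ratio was 0.27 (0.19 to 0.34) in tw18/+ against WT, -0.29 (-0.37 to -0.21) in tw18/tw18 against WT and -0.56 in tw18/tw18 against tw18/+. After rescaling to equal sums these ratios were 0.23, -0.081 and -0.31, in that order. Anterior visceral endoderm markers summed to an FPKM of 123 in WT, 130 in tw18/+ and 232 in tw18/tw18, where *Cer1*, *Hhex* and *Hesx1* of the 6 were higher by 2-fold and *Lefty1* was lower, the latter not after rescaling to equal sums. Their part in the *Otx2* value was not tested. The paralog *Otx1* stood at 1.33, 0.496 and 0.0738 FPKM, a log2 ratio of -4.17 in tw18/tw18 against WT. Its tw18/tw18 value is close to the 0.0476 FPKM of 1 fragment on 1 kb there, and no counting interval was derived for it.

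*Pou3f1* (Chr 4, positions 124656807 to 124660655) encodes the POU factor OCT6. It stood at 36.2 FPKM in WT, 33.2 in tw18/+ and 19.5 in tw18/tw18, from about 1998, 2609 and 1512 fragments. The log2 ratio of -0.89 (-0.99 to -0.80) in tw18/tw18 against WT fell short of 2-fold, with 53.8% of the WT level left. The paralogs *Pou3f2*, *Pou3f3* and *Pou3f4* were under an FPKM of 1 in every library.

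*Sall2* (Chr 14, positions 52311172 to 52328762) encodes a spalt-like zinc finger protein. Its FPKM was 53.5 in WT, 53.3 in tw18/+ and 31.7 in tw18/tw18, a log2 ratio of -0.76 (-0.82 to -0.69) against WT. Its relative *Sall4*, a pluripotency factor, stood at 152, 139 and 118 FPKM, a log2 ratio of -0.37, and *Sall1* had 31.8, 30.5 and 36.4, a log2 ratio of 0.20. *Sall3* had 3.68, 2.39 and 0.356, a log2 ratio of -3.37. Of the 13 paralogs of the 9 genes listed, 6 reached 1 FPKM in WT or tw18/tw18. Of these, 3 were lower by 2-fold (*Otx1*, *Sall3* and *Sox2*) and 0 higher.

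*Utf1* (Chr 7, positions 139943789 to 139945112) stood at 165 FPKM in WT, 160 in tw18/+ and 114 in tw18/tw18, a log2 ratio of -0.53 (-0.61 to -0.45) against WT. It was among the genes of the 9 with a decrease under 1.5-fold, with 69.2% of the WT level left, as were *Lin28a* (72.5%), *Otx2* (81.6%) and *Sox3* (97.2%).

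*Sox3* (Chr X, positions 60891366 to 60893430) encodes a SOXB1 factor of the early neural plate. It stood at 8.94 FPKM in WT, 8.61 in tw18/+ and 8.69 in tw18/tw18, from about 256, 350 and 350 fragments. In the deposited values the 3 libraries lay within counting error of each other. The log2 ratios were -0.042 (-0.28 to 0.20) in tw18/tw18 against WT and 0.012 (-0.20 to 0.23) against tw18/+. The first of these became positive (0.17) after rescaling to equal sums. The second became 0.26, above the upper end of its interval from the deposited values. *Sox2*, the related factor of pluripotent and neural cells, stood at 13.0, 11.3 and 5.10 FPKM. *Sox3* was therefore at 0.688 of the *Sox2* level in WT, 0.760 in tw18/+ and 1.71 in tw18/tw18. *Sox1*, the third gene of this group, was under an FPKM of 1 in each library.

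Of 19 other genes of the formative and primed epiblast, 5 were lower and 0 higher by 2-fold in tw18/tw18 against WT, and the median was -0.70, close to that of the 9 genes. After rescaling to equal sums 4 were lower. *Dnmt3b*, a de novo DNA methyltransferase and the most abundant, stood at 719, 733 and 359 FPKM in WT, tw18/+ and tw18/tw18, just past the limit, and was the 1 lost on rescaling. *Tcf15* had 1.63, 1.06 and 0.280, a log2 ratio of -2.54. *Sox11* (-2.36), *Tdgf1* (-1.96) and *Foxd3* (-1.83) were the others. Of these 19 genes *Dnmt3b*, *Tdgf1*, *Foxd3* and 3 more are also on the epiblast marker list. *Grhl2*, an epithelial transcription factor, was highest by this measure, with 7.25, 7.74 and 7.70 and a log2 ratio of 0.087. In tw18/+ against WT 1 of the 19 was lower, *Dnmt3a*, which was listed at 0 in tw18/+ with 35.1 in WT and 24.2 in tw18/tw18, and an exact 0 can be a failed estimate.

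Of 17 anterior neural genes, 7 reached 1 FPKM in WT or tw18/tw18. Of these 2 were lower by 2-fold, *Sox2* and *Otx1*, and 3 higher, *Hesx1*, *Emx2* and *Rax*, of which *Hesx1* is also an anterior visceral endoderm marker. *Sox2* and *Otx1* are also among the paralogs counted above, and *Sox2* is on the epiblast marker list as well. *Emx2* stood at 1.45, 2.89 and 9.96 FPKM in WT, tw18/+ and tw18/tw18, a log2 ratio of 2.78. It is a forebrain gene that the uterus and urogenital tract also express. *Nes*, the intermediate filament nestin of neural precursors, had 3.24, 3.13 and 3.56. *Rax*, an eye field gene, was listed at 0 in WT and had 0.404 and 2.66 in the other libraries.

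Markers of several tissues also differed between these libraries. Of the 10 epiblast markers 6 were lower by 2-fold in tw18/tw18 against WT (4 after rescaling to equal sums), and their summed FPKM was 1727 in WT, 1831 in tw18/+ and 835 in tw18/tw18. Of 11 extra-embryonic ectoderm markers 9 were higher by 2-fold, with sums of 110, 116 and 217, and 0 of them were at 0 in any library. Of 13 markers of decidua and stroma 11 were higher and 1 lower, *Prl8a2*, which was 1504 in WT, 155 in tw18/+ and 377 in tw18/tw18. Of 15 visceral endoderm markers 1 was higher by 2-fold and 14 lay above WT, with sums of 938, 914 and 1224. Endothelial markers were higher for 4 of 7 (sums 55.2, 43.9 and 112), parietal endoderm markers for 4 of 5 (248, 294 and 596), trophoblast giant and ectoplacental cell markers for 1 of 6, with 1 lower (133, 89.8 and 247), and immune cell markers for 2 of 7 (11.7, 10.1 and 27.7). The 3 adult globin genes in the table summed to 52.2, 54.5 and 175, of which *Hbb-bs* made up 0.018, 0.555 and 47.6, while fragments of the near-identical *Hba-a1* and *Hba-a2* cannot be assigned with certainty. Primitive streak markers were lower for 6 of 8 (4 after rescaling), with sums of 201, 144 and 92.0 and *T* and *Mesp1* listed at 0 in tw18/tw18. After rescaling to equal sums the markers higher by 2-fold numbered 4 for visceral endoderm, 10 for extra-embryonic ectoderm, 12 for decidua and stroma, 5 for endothelium, 5 for parietal endoderm, 2 for trophoblast and 2 for immune cells. The part of this tissue content in the values of the 9 genes was not tested.

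**Figure D5:**
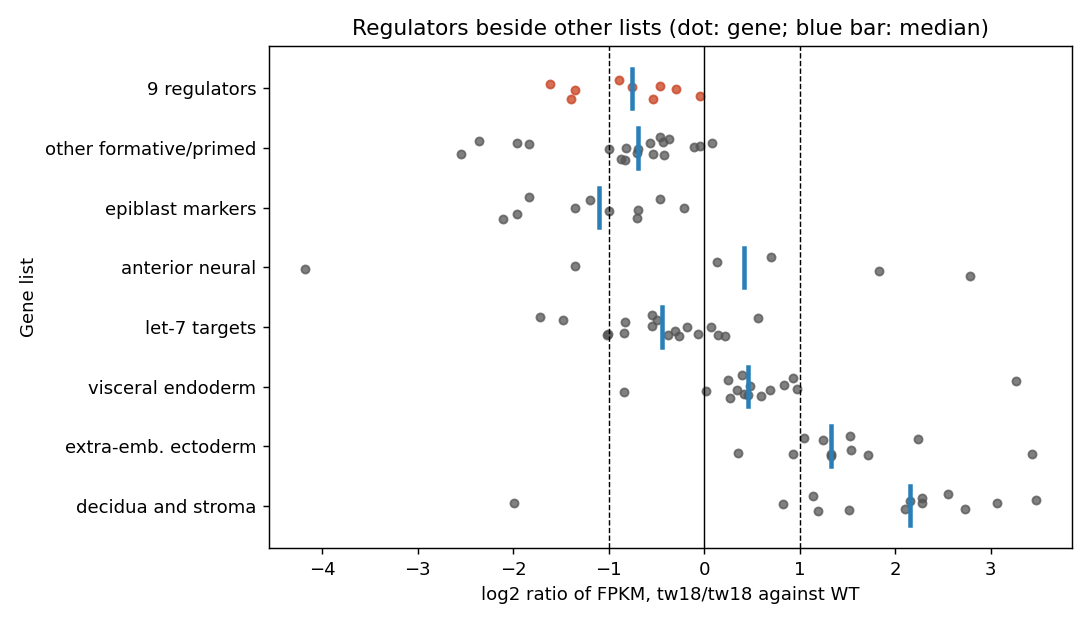
log2 ratio of FPKM, tw18/tw18 against WT, for the 9 genes (red) and 7 other lists, 1 dot per gene above 0 in both libraries that reached 1 FPKM in either, with the list median as a blue bar and dashed lines at 2-fold. The medians of the 9 genes and of the other epiblast lists lie left of 0, and those of the visceral endoderm, extra-embryonic ectoderm and decidua lists lie right of it.

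Set against the epiblast markers, whose median log2 ratio in tw18/tw18 against WT was -1.10, 3 of the 9 genes lay below and the others above. *Zic5* (-0.51), *Zic2* (-0.30) and *Lin28b* (-0.25) were lower than that median, and *Pou3f1* (0.20), *Sall2* (0.34), *Utf1* (0.57), *Lin28a* (0.64), *Otx2* (0.81) and *Sox3* (1.06) higher. The markers themselves had log2 ratios from -2.11 (*Nanog*) to -0.21 (*Enpp3*). All of the 9 genes but *Sox3* lay within that range. *Pou5f1*, which encodes the pluripotency factor OCT4, is one of these markers, and it lies within the *t* complex on Chr 17. *Zic2* amounted to 0.0656 of the *Pou5f1* level in WT, 0.0500 in tw18/+ and 0.0572 in tw18/tw18, and *Lin28b* to 0.0394, 0.0305 and 0.0353. *Lin28a* amounted to 0.297, 0.257 and 0.494, *Utf1* to 0.262, 0.222 and 0.416, and *Otx2* to 0.132, 0.138 and 0.247. *Sox3* amounted to 0.01424, 0.01195 and 0.03174. Relative to *Pou5f1*, *Zic2* and *Lin28b* in tw18/tw18 lay between the other libraries, and *Lin28a*, *Utf1*, *Otx2* and *Sox3* were highest there. The log2 ratio of *Zic5* in tw18/tw18 lay below that of *Pou5f1* against WT (-1.61 and -1.20) and against tw18/+ (-1.55 and -1.40). Relative to *Pou5f1*, *Zic5* was therefore lowest in tw18/tw18.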

How the data were processed

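RNA was sequenced from 1 library per genotype as paired reads of 50 bp with a strand-specific kit. The authors aligned them to GRCm38 and deposited FPKM values from Cuffdiff for each gene symbol. The submitters' processing notes name TopHat2, Bowtie 1.0.0 and Cufflinks 2.2.1. The gene annotation, the library normalization and whether fragments were assigned by strand are not given in the sources used here. *Otx2* (5112 bp), *Pou3f1* (363 bp) and *Lin28a* (695 bp) overlap an annotated gene on the opposite strand, whose fragments may be included.

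The fold limit of 2 is that of the study, and its FPKM minimum of 1, set there over the 3 samples, was applied to each pair. Fragment numbers were derived from genes annotated with 1 transcript of more than 600 bp in GENCODE M21, allowing 150 bp for the fragment, as the spacing of values of up to 4 fragments. Between 79.9% and 82.6% of these values lay within 0.2 of a whole number. Counting intervals are 95% exact (binomial for ratios). Python 3.11.15, numpy 2.4.6, pandas 2.3.3, scipy 1.17.1 and matplotlib 3.10.9 were used. The calls were tested on simulated data, with changes well past the fold limit in genes well above the FPKM minimum. That test does not cover calls near either limit. Genes named are the 9 members, *Ppp2r1a*, and in each list the 2 most abundant in WT and the extremes of the log2 ratio. *Zic1*, *Zic4*, *Sall3*, *Sox1*, *Pou3f2* to *Pou3f4*, *Sox11*, *Tdgf1*, *Foxd3*, *Dnmt3a*, *Hmga2*, *Mycn*, *Ccnd1*, *Rax*, *Hhex*, *Hbb-bs*, *T*, *Mesp1* and *Mirlet7f-1* were named after their values were seen. Members and lists were chosen with earlier results of these data known. Alternatives were other filters, pseudocounts, scalings and fold limits.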

Additional observations from a re-analysis of the deposited data

How the results depend on the processing

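The count of genes lower by 2-fold and the median log2 ratio of the 9 genes were recomputed in each comparison with an FPKM minimum of 5 or none, pseudocounts of 0.1 and 1, and centring on the median of all genes, and each count stayed the same. The share of all genes lower did not, and ran from 4.11% to 10.8% in tw18/tw18 against WT. It ran from 2.92% to 12.1% in tw18/tw18 against tw18/+, and from 1.63% to 9.91% in tw18/+ against WT. Rescaling to equal FPKM sums gave a median of -0.54 in tw18/tw18 against WT with the count at 3, and a median of -0.50 with a count of 1 against tw18/+. Scaling to the median log2 ratio of the 10 epiblast markers left 0 genes lower in both comparisons of tw18/tw18, with 1 higher, *Sox3*, and a median of 0.34 in each, beside 2.11% of all genes lower and 55.7% higher against WT, and 1.42% and 55.4% against tw18/+. A limit of 1.5-fold raised the count to 5 in both. The epiblast scaling adds 1.10 to every log2 ratio of tw18/tw18 against WT, so by construction each gene or list median above -1.10 becomes positive, among them 6 of the 9 genes. The estimated fragment numbers of *Otx2* and *Lin28a* depend on the transcript length assumed, from 452 to 3014 in WT for *Otx2*. No paired analysis was possible because each genotype has 1 library and the labels give no replicate numbers. Leaving out a library removes the comparisons that use it and does not alter the other. The depth limits the low genes, such as *Sox3*.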

Other observations

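Among genes that reached 10 FPKM in WT, those whose pair of log2 ratios against WT lay nearest to the medians of the 9 regulators (-0.054 in tw18/+ and -0.76 in tw18/tw18) were *Ybx3*, *Hnrnpab*, *Rfc3*, *Atic* and *Hiat1*. *Ybx3* encodes a cold-shock domain protein, *Hnrnpab* an RNA-binding protein, *Rfc3* a subunit of the DNA replication clamp loader and *Atic* an enzyme of purine synthesis. *Ybx3* stood at 228 FPKM in WT, 221 in tw18/+ and 133 in tw18/tw18, at a Euclidean distance of 0.021 on the log2 scale. *Hnrnpab* stood at 414, 405 and 247 FPKM. The likeness rests on 3 libraries, and 100 of 6105 genes lay within 0.1 of the same point.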
